A study of Mus musculus with 11 samples.

Results

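Trim14 and 8 genes of the type I interferon response (Rsad2, Ifit1, Ifit2, Ifit3, Isg15, Oasl2, Usp18 and Irf7) were followed in epididymal fat, the fat pad beside the testis, across 3 genotypes. They are 9 of 19324 genes named in the annotation of the array, were found there by symbol, and are represented by 12 of its 45101 probe sets, each probe set being a group of short probes against one transcript. Of these, 11 probe sets name 1 gene and cover 8 of the 9 genes. The only probe set for Isg15 also names the pseudogene Gm9706, so its signal is given under both names and assigned to neither. The genes were chosen with earlier results of these arrays known. The values they were selected on are not stated, and are taken here to be the lower signal of Trim14 and the higher means of interferon genes in knockout than in wild-type fat. For the 9 genes, differences from wild type are therefore descriptions. Where a count past the threshold is given for such a difference, nothing is read from it. Genes of the wider pathway lists are tested in all comparisons.

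All mice were male C57BL/6 animals, 3 months old and fed standard chow. Fat rescue mice (aP2B1-B1-/-, 3 arrays) lack the endogenous kinin B1 receptor, a receptor for inflammatory kinin peptides, and express it in fat. Knockout mice (B1-/-, 4 arrays) lack it everywhere, and wild-type mice (B1+/+, 4 arrays) carry it. The name aP2 is an older one for Fabp4, and its promoter directs a transgene to adipocytes, although macrophages express Fabp4 too. The labels call the arrays biological replicates and do not say that mice were littermates.

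Type I interferons are secreted by cells that sense foreign or misplaced nucleic acid. They bind the receptor made of IFNAR1 and IFNAR2, whose kinases JAK1 and TYK2 activate transcription factors. These form a complex with IRF9 that binds the interferon-stimulated response element and switches on a large set of antiviral genes. In fat the same genes are expressed by adipocytes, by resident macrophages and by endothelial cells, at a low level in the absence of infection.

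The response element is shown for the genes whose promoter holds it, because it is the DNA feature through which interferon signalling reaches its target genes. Its core, taken as GAAA, any 2 bases and GAAA again, was searched on both strands (TTTC in place of GAAA on the other) in windows from 250 bases before to 50 bases after the annotated start, in RefSeq sequence of GRCm38.p6. It was present in 3.44% of all 32851 windows, and 0.225% held it more than once, overlapping matches counted singly. Of the 9 genes all but Trim14 and Usp18 had a window, and 4 of these 7 held the core, shown in capitals in the strand of the gene.
Ifit1: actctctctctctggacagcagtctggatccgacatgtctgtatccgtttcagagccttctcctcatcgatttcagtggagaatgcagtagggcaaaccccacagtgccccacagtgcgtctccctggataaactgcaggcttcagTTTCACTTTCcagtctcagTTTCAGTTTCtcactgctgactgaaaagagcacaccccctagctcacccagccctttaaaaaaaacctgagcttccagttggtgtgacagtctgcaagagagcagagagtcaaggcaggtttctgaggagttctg
Ifit3: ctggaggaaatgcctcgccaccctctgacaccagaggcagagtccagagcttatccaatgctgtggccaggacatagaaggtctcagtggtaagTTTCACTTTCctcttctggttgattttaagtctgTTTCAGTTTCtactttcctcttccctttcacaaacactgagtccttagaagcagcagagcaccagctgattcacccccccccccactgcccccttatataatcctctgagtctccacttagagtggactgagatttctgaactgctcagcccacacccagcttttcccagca
Isg15: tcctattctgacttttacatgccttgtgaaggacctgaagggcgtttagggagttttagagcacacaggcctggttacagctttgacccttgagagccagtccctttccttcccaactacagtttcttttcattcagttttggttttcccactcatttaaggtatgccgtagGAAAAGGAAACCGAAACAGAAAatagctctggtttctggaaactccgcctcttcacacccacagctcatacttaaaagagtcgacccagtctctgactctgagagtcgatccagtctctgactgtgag
Rsad2: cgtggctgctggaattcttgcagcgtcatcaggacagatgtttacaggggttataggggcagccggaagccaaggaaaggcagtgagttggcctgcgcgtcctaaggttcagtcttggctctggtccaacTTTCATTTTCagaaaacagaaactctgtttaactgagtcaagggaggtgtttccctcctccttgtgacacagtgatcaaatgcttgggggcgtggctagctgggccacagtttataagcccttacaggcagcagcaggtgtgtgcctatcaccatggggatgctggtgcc
The windows lie at chr19:34640639-34640938 (Ifit1, plus strand), chr19:34583279-34583578 (Ifit3, plus strand), chr4:156200769-156201068 (Isg15, minus strand) and chr12:26456403-26456702 (Rsad2, minus strand). In Ifit1 the 2 matches began 104 and 85 bases before the start, and in Ifit3 the 2 matches began 156 and 122 bases before it. In Isg15 there were 3 overlapping matches, beginning 78, 72 and 66 bases before the start, and in Rsad2 there was 1, at 120 bases. These letters are not in the windows of Ifit2, Irf7 and Oasl2.

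The arrays measured fat. Adiponectin (Adipoq) averaged 19393 ± 2089 in fat rescue, 19213 ± 3146 in knockout and 20989 ± 2816 in wild type (SD, n = 3, 4 and 4). Fat rescue array 1 and wild-type array 1 stood apart from the others in a principal component analysis, scoring -34.1 and -45.4 on the axis of largest variance (27.3%) against -15.6 to 26.5. Values with and without both are given where they matter. Beta-actin signal at the 3′ end over that at the 5′ end, which climbs as RNA degrades, was 1.47 to 1.56 in fat rescue, 1.53 to 1.69 in knockout and 1.65 to 1.83 in wild type. The same ratio for Gapdh overlapped, at 0.918 to 0.95 in fat rescue, 0.865 to 1.0 in knockout and 0.918 to 1.03 in wild type. The part of RNA quality in the results below was not tested.

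Trim14 encodes a tripartite motif protein that joins the mitochondrial adaptor MAVS in the sensing of viral RNA. Its bright probe set read 587.9, 685.6 and 699.3 in fat rescue arrays 1 to 3 and 504.0, 563.6, 675.4 and 577.6 in knockout arrays 1 to 4. In wild-type arrays 1 to 4 it read 1085.3, 923.1, 1141.4 and 920.8. The lowest wild-type array lay above every array of both receptor-deficient lines, whereas fat rescue and knockout arrays overlapped. Of all genes, 1.86% lay wholly below wild type in knockout and 3.5% in fat rescue. The Trim14 means were 658 ± 60.7 in fat rescue, 580.1 ± 71.1 in knockout and 1018 ± 113 in wild type (SD, n = 3, 4 and 4). Signal was thus 0.57 times that of wild type in knockout (log2 difference -0.81 ± 0.11, SE) and 0.647 times in fat rescue (-0.63 ± 0.12). These arrays hold whole tissue, so fewer cells of a type and less RNA per cell cannot be told apart.

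Fat rescue exceeded knockout in Trim14 by 0.18 ± 0.12 on the log2 scale and did not pass (adjusted p = 0.998, limma, Benjamini-Hochberg over 12709 genes). That comparison uses the same knockout arrays as the choice of Trim14. In knockout minus wild type, Trim14 was the 1 of 8 measured genes past an adjusted p of 0.05. Over all genes 0.0393% passed, made up of 0.0236% that were higher and 0.0157% that were lower. Since Trim14 was chosen for this difference, nothing is read from its place among them. It no longer passed without wild-type array 3 or without knockout array 1, 2 or 4 (log2 -0.75, -0.75, -0.80 and -0.81). Without wild-type array 1 the difference was -0.78, and fat rescue array 1 does not enter it. The other Trim14 probe set was near the bottom of the array's range, in the 19.2nd percentile of all probe sets, and did not pass the filter on dim signals. It read 1.9 to 4.7 in fat rescue, 3.5 to 14.7 in knockout and 5.8 to 29.4 in wild type, too low for a fold change.

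**Figure D1:**
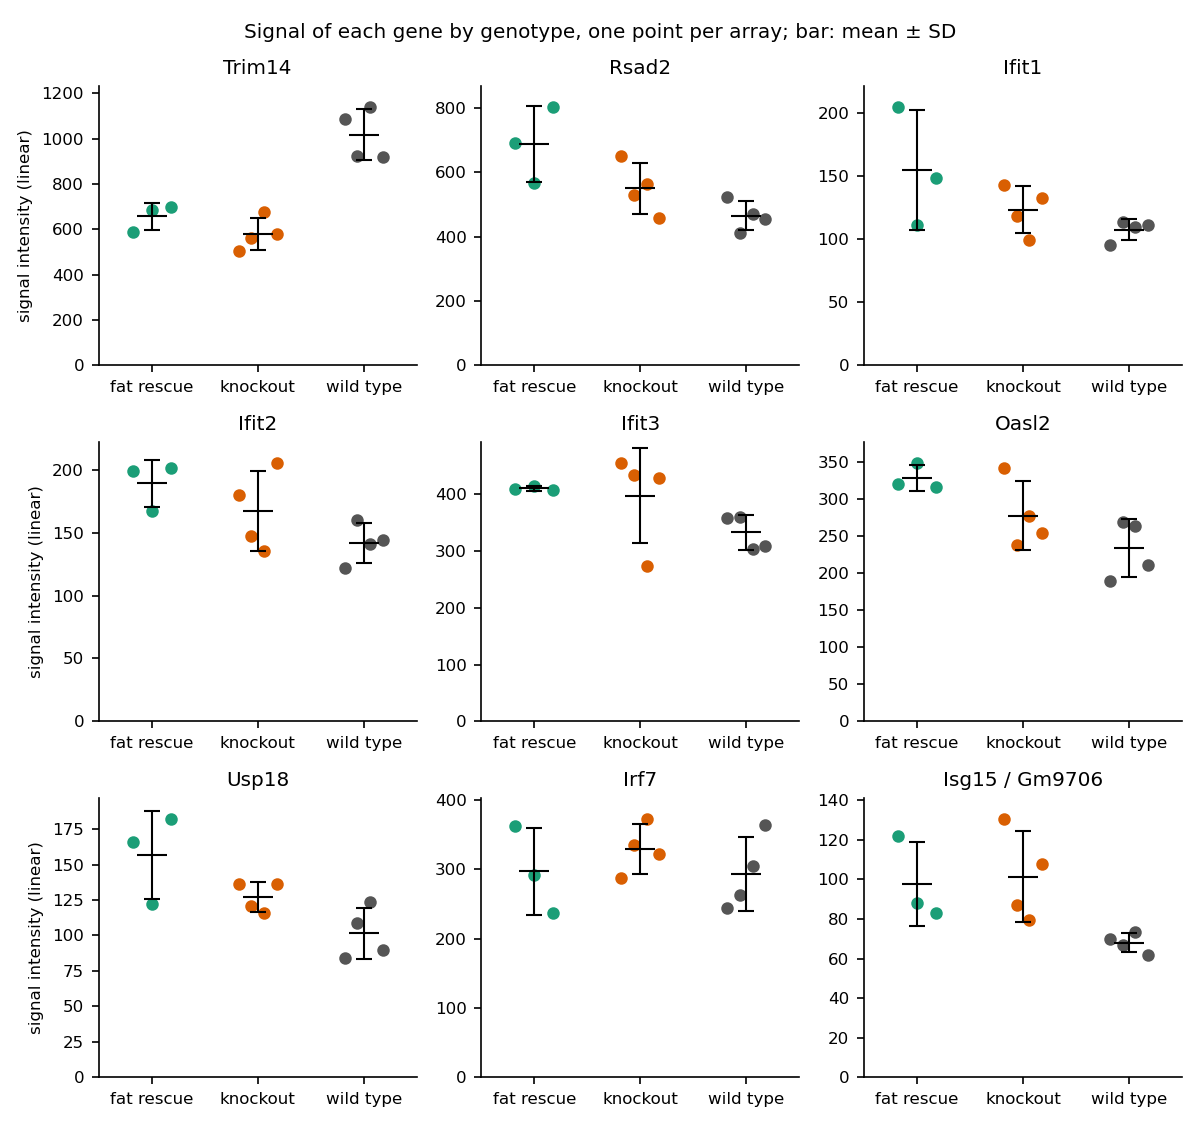
Linear signal intensity (vertical axis, from 0) of each gene in fat rescue (n = 3), knockout (n = 4) and wild-type (n = 4) fat; points are arrays, and the bar gives mean ± SD. All wild-type Trim14 points (920.8 to 1141.4) lie above those of both other genotypes, while fat rescue and knockout overlap in every panel.

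The other 8 genes had higher means in both receptor-deficient lines than in wild type. In knockout minus wild type, 8 of 8 were higher (median log2 difference 0.24, range 0.18 to 0.55), where 53.7% of all genes had a higher mean and the median over all genes was 0.02. With arrays centred on their medians, all 8 were still higher, but the median was 0.08 and the range 0.03 to 0.40, beside a median of -0.13 over all genes. In fat rescue minus wild type, 8 of 8 were higher (median 0.50, range 0.01 to 0.62) beside 55.7% of all genes and a median of 0.03. Leaving out fat rescue array 1 and wild-type array 1 gave 7 of 8 higher there, with a median of 0.35 (range -0.22 to 0.60). Centring gave 7 of 8 higher, with a median of 0.39 (range -0.09 to 0.52), beside -0.07 over all genes. In fat rescue minus knockout, 6 of 8 were higher (median 0.22, range -0.16 to 0.32) beside 52.6% and 0.01. Without fat rescue array 1 the median was 0.12 and the range -0.32 to 0.31. Wild-type arrays do not enter this difference, so leaving out wild-type array 1 as well could not alter it. For 6 genes the means ran from fat rescue, the highest, through knockout to wild type. For Irf7 and the Isg15/Gm9706 probe set knockout was highest and wild type lowest, and for Trim14 wild type was highest and knockout lowest. Neighbours in these orders mostly overlapped: fat rescue and knockout arrays overlapped in all 9 genes, where 2.84% of all genes lay wholly higher in fat rescue and 2.09% wholly lower. In fat rescue against wild type, 4 of the 7 genes with a probe set of their own lay wholly higher, beside 5.74% of all genes.

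In fat rescue minus knockout, 0 of 8 measured genes passed with limma, where 0% of all genes passed. One of the 8, Rsad2, had an unadjusted p under 0.05 there, beside 3.81% of all genes.

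**Figure D2:**
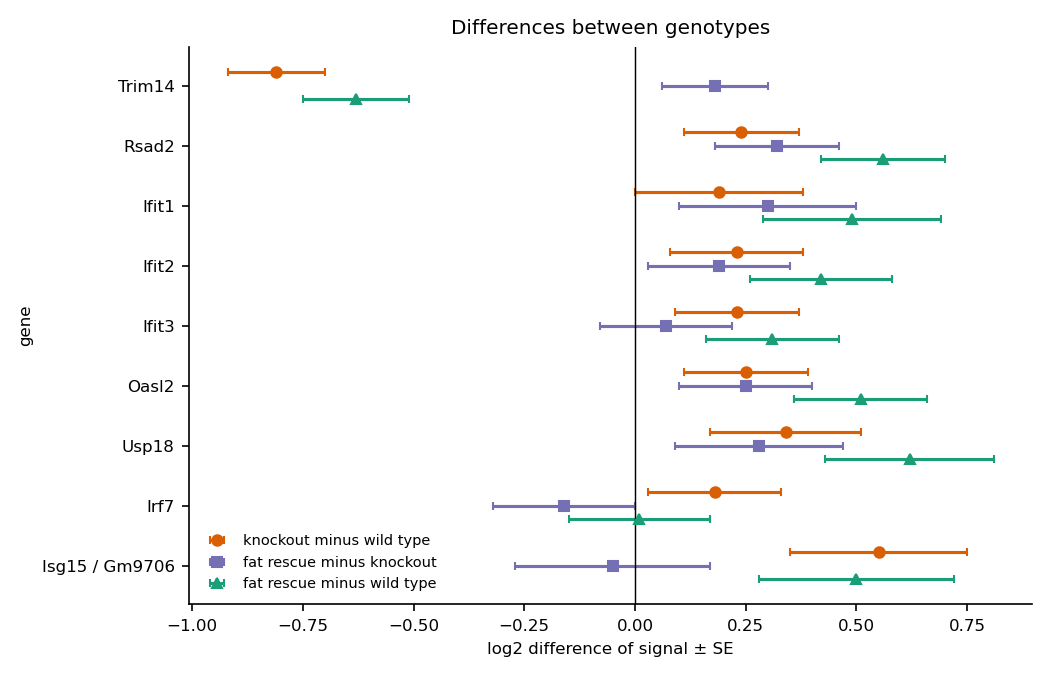
Log2 difference of signal (horizontal axis) with its standard error for each gene in the 3 comparisons, from the fit on all probe sets tested singly. Trim14 lies at -0.81 and -0.63 against wild type, whereas the other genes lie between 0.01 and 0.62 against wild type and between -0.16 and 0.32 in fat rescue minus knockout.

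Among the effectors, Rsad2 encodes viperin, an enzyme that makes a nucleotide analogue which stops viral RNA synthesis. Its brightest probe set read 691.7, 565.4 and 803.0 in fat rescue, 649.7, 528.7, 562.8 and 456.4 in knockout, and 521.4, 411.5, 468.9 and 454.7 in wild type. Every fat rescue array lay above every wild-type array, and knockout overlapped with both. The log2 difference was 0.32 ± 0.14 (SE) in fat rescue minus knockout, 0.24 ± 0.13 in knockout minus wild type and 0.56 ± 0.14 in fat rescue minus wild type. The other probe sets of Rsad2 also had their highest mean in fat rescue and their lowest in wild type. One averaged 236 ± 69.5 in fat rescue, 209.7 ± 8.53 in knockout and 172 ± 21.9 in wild type. In that probe set all knockout arrays lay above all wild-type arrays, as was so for 1.98% of all genes. The other averaged 196 ± 53.3, 155 ± 15.8 and 141 ± 17.7 in the same genotypes. Their fat rescue means were raised by fat rescue array 3, at 316.3 and 251.0.

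The Ifit genes encode proteins with tetratricopeptide repeats, of which Ifit1 binds viral RNA that lacks the methylation marks of the host's cap. Ifit1 read 205.3, 111.5 and 148.5 in fat rescue, 143.0, 118.6, 99.9 and 132.9 in knockout, and 95.3, 113.6, 109.9 and 111.7 in wild type. Fat rescue array 2 fell within the wild-type range, so all 3 genotypes overlapped. Fat rescue minus wild type was 0.49 ± 0.20 and dropped to 0.20 when fat rescue array 1 and wild-type array 1 were left out. Fat rescue minus knockout was 0.30 ± 0.20, and 0.07 without fat rescue array 1. Knockout minus wild type was 0.19 ± 0.18.

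Ifit2, which acts with its relatives on viral RNA, read 198.9, 167.6 and 201.0 in fat rescue, 179.7, 147.6, 135.8 and 205.6 in knockout, and 121.8, 159.8, 140.9 and 144.5 in wild type. The fat rescue arrays lay above all wild-type arrays, although the lowest exceeded the highest wild-type array by little. Knockout spanned most of both ranges. Log2 differences were 0.19 ± 0.16 in fat rescue minus knockout, 0.23 ± 0.15 in knockout minus wild type and 0.42 ± 0.16 in fat rescue minus wild type.

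Ifit3, a partner that stabilises the binding of RNA by human IFIT1, was even among fat rescue arrays, at 408.3, 413.9 and 406.3. Knockout arrays read 454.6, 432.3, 273.4 and 427.2, and wild-type arrays read 357.7, 358.6, 303.6 and 307.9. Knockout array 3 alone lay below the wild-type range, while the other 3 knockout arrays lay above it. Fat rescue minus knockout was 0.07 ± 0.16 and turned to -0.10 without knockout array 3. Knockout minus wild type was 0.23 ± 0.14, and 0.40 without that array. Fat rescue minus wild type was 0.31 ± 0.16.

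Oasl2 encodes a relative of the oligoadenylate synthetases with ubiquitin-like domains. It read 320.5, 349.6 and 316.5 in fat rescue, 342.9, 237.9, 277.7 and 254.3 in knockout, and 189.9, 270.1, 263.7 and 211.6 in wild type. Every fat rescue array exceeded every wild-type array, and knockout lay between them with overlap on both sides. The differences were 0.25 ± 0.15 in fat rescue minus knockout, 0.25 ± 0.14 in knockout minus wild type and 0.51 ± 0.15 in fat rescue minus wild type.

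Isg15 is a ubiquitin-like protein that is joined to other proteins during an interferon response. The probe set shared by Isg15 and Gm9706 read 122.0, 88.1 and 83.2 in fat rescue, 130.7, 87.0, 79.6 and 107.9 in knockout, and 69.9, 67.1, 73.4 and 61.9 in wild type. All 7 arrays of the receptor-deficient lines lay above all 4 wild-type arrays. Of all genes, 1.98% lay wholly above wild type in knockout and 5.74% in fat rescue. The SD of the shared probe set was 4.86 in wild type against 21.1 in fat rescue and 23 in knockout. Knockout minus wild type was 0.55 ± 0.20 and fat rescue minus wild type 0.50 ± 0.22, while fat rescue minus knockout was -0.05 ± 0.22 (adjusted p = 1.0 over all 45037 probe sets, limma). This last difference was 0.00 with median-centred arrays and changed sign to 0.09 without knockout array 1, to 0.02 without fat rescue array 2 and to 0.06 without fat rescue array 3.

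Of the regulators, Usp18 removes ISG15 from proteins and blocks signalling at the interferon receptor. It read 166.0, 122.0 and 182.3 in fat rescue, 136.4, 120.7, 116.0 and 136.3 in knockout, and 83.9, 108.6, 123.6 and 89.6 in wild type. Wild-type array 3 reached into the ranges of both other genotypes. Fat rescue minus wild type was 0.62 ± 0.18, knockout minus wild type 0.34 ± 0.17 and fat rescue minus knockout 0.28 ± 0.18.

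Irf7, the transcription factor that drives the production of type I interferons, had the smallest of the 8 differences between fat rescue and wild type. It read 362.2, 292.3 and 237.5 in fat rescue, 287.1, 335.6, 373.3 and 322.5 in knockout, and 244.4, 262.8, 304.4 and 364.9 in wild type. All 3 genotypes overlapped over most of their range. Fat rescue minus wild type was 0.01 ± 0.17, with its sign depending on the normalization and the arrays used (-0.09 with arrays centred on their medians). Knockout minus wild type was 0.18 ± 0.15 and fat rescue minus knockout -0.16 ± 0.17.

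**Figure D3:**
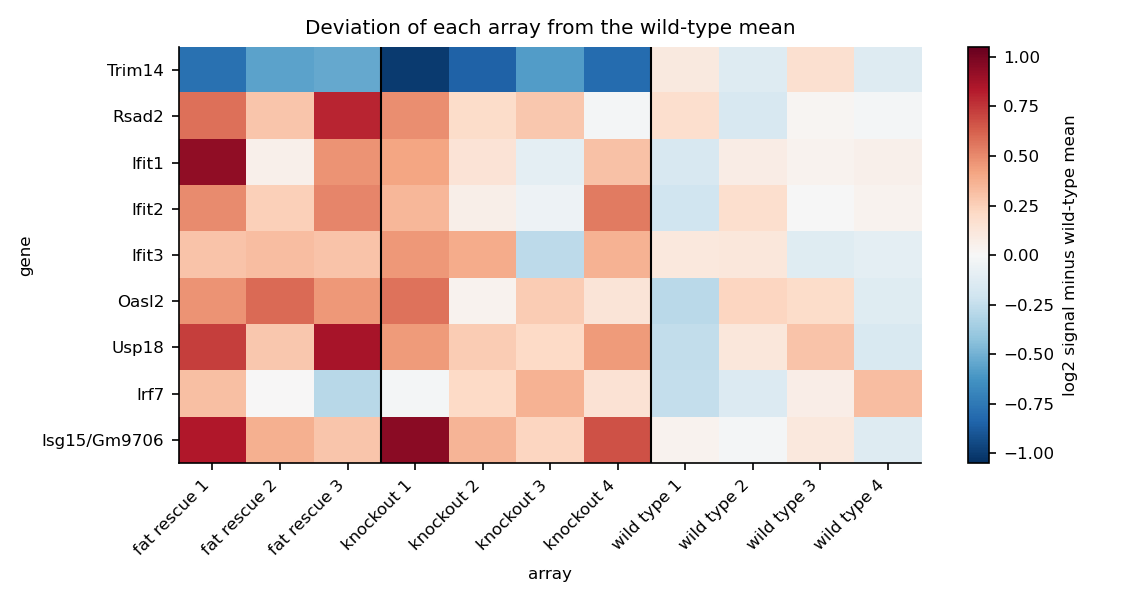
Log2 signal of each gene (rows) on each array (columns) minus the mean of the 4 wild-type arrays, with red above and blue below that mean. Trim14 is below it in all 7 fat rescue and knockout arrays (-1.01 to -0.54), while the Isg15/Gm9706 row is above it in all 7 (0.23 to 0.94).

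The 8 genes other than Trim14 were mostly positively correlated over the 11 arrays, a description that includes the genotype differences. Pearson's r of log2 signal was above 0 in 23 of 28 pairs, with a median of 0.58, and the highest was 0.84 for Ifit2 with Usp18. The lowest was -0.31, for Ifit3 with Irf7. With each genotype's mean removed, r was above 0 in 20 of 28 pairs and the median dropped to 0.20. Averaged over the 8 genes and relative to wild type on the log2 scale, fat rescue arrays lay at 0.27 to 0.58, knockout arrays at 0.11 to 0.46 and wild-type arrays at -0.11 to 0.07. The highest was fat rescue array 1 and the next was knockout array 1. Wild-type array 1 was the lowest of all arrays for 4 of the 8 genes, and no wild-type array was the highest for any.

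The genes most like Trim14 over the 11 arrays, by Pearson's r of log2 signal, were Hsd11b1 (r = 0.93), Ube2g2 (0.93), Syap1 (0.92), Nucb1 (0.90) and BC031181 (0.90). Hsd11b1, which regenerates active glucocorticoid, averaged 3855 in fat rescue, 3178 in knockout and 5649.9 in wild type. The other 4 differed less, by -0.25 to -0.19 in knockout minus wild type. Most like the mean of the other 7 measured genes were Poc1b (0.97), Sel1l (0.96), Enpp3 (0.95), B3gnt2 (0.94) and Ikzf1 (0.94), a transcription factor of blood cells. Ikzf1 averaged 189.9 in fat rescue, 180.2 in knockout and 133 in wild type. None of these 5 is among the interferon genes listed here.

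Macrophages also express these antiviral genes, and their markers also had higher means in both lines. All 16 macrophage markers were measured and none was at 0. In knockout 16 of 16 had higher means than in wild type, beside 53.7% of all genes, and in fat rescue 15 of 16 had, beside 55.7%. In fat rescue 8 of the 16 lay wholly above wild type, beside 5.74% of all genes, and 6 had an unadjusted p under 0.05 (limma), beside 8.09%. In knockout 0 lay wholly above wild type, beside 1.98%, and 1 had an unadjusted p under 0.05, beside 7.3%. None passed the test in either comparison. Their summed signal was 27614 to 33214 in fat rescue, 21006 to 41636 in knockout and 18981 to 27110.2 in wild type. Knockout array 1 was highest in this list, at 0.91 above the wild-type mean on the log2 scale, against -0.02 to 0.14 in the other knockout arrays. Fat rescue arrays lay at 0.29 to 0.57 in this list and wild-type arrays at -0.25 to 0.26. Without knockout array 1 the median knockout minus wild type difference of the 8 genes other than Trim14 was 0.17 in place of 0.24. The part of macrophages in these differences was not tested.

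Means of markers of other cell types differed between the genotypes as well, although none of these markers passed the test in any comparison. Of 6 mesothelial markers, from the lining of the fat pad, 5 had higher means in fat rescue than in wild type (median log2 difference 0.45) and 5 in knockout than in wild type (0.15). In fat rescue 3 of the 6 lay wholly above wild type, beside 5.74% of all genes. There 4 had an unadjusted p under 0.05, beside 8.09% of all genes, and 0 passed the test (limma). Their summed signal was 3870.5 to 4595 in fat rescue, 3192 to 3935 in knockout and 2380.2 to 3792 in wild type. Of 8 endothelial markers 8 had higher means in fat rescue than in knockout (median 0.18), beside 52.6% of all genes. Of these 0 passed the test, with 1 at an unadjusted p under 0.05 (limma), beside 3.81% of all genes. Their summed signal was 4276 to 5803 in fat rescue, 3780.5 to 4625 in knockout and 4131 to 4834 in wild type. No marker of either list was at 0, and the part of these cells was not tested. Of 9 measured T and B lymphocyte markers, 8 were higher in knockout and 9 in fat rescue than in wild type, at low signals. Of all genes 53.7% and 55.7% were higher. The mean log2 level of these markers, relative to wild type, was -0.60 on wild-type array 1 and 0.06 to 0.30 on the other wild-type arrays. It was 0.16 to 0.65 in knockout and 0.36 to 0.41 in fat rescue. Plasmacytoid dendritic cells are the main producers of type I interferon. Of their 4 measured markers, 0 were higher in knockout and 1 in fat rescue than in wild type. Their markers on the array that did not pass the filter on dim signals had their highest means in knockout. Siglech, a defining marker, averaged 37.8 in fat rescue, 31.2 in knockout and 39.0 in wild type, near the filter limit of 23.7. The 9 measured adipocyte markers were mostly lower, with 9 of 9 below wild type in knockout and 8 of 9 in fat rescue, and 0 passed the test. In knockout minus wild type 3 of them had an unadjusted p under 0.05 (limma), beside 7.3% of all genes. In fat rescue minus wild type 0 had, beside 8.09%. The part of adipocytes was not tested. The mean level of 5 measured neutrophil markers, relative to wild type on the log2 scale, was 2.65 on fat rescue array 1. It was -0.95 and -0.68 on the other fat rescue arrays, -0.36 to 0.68 in knockout and -0.48 to 0.78 in wild type. The part of neutrophils was not tested.

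**Figure D4:**
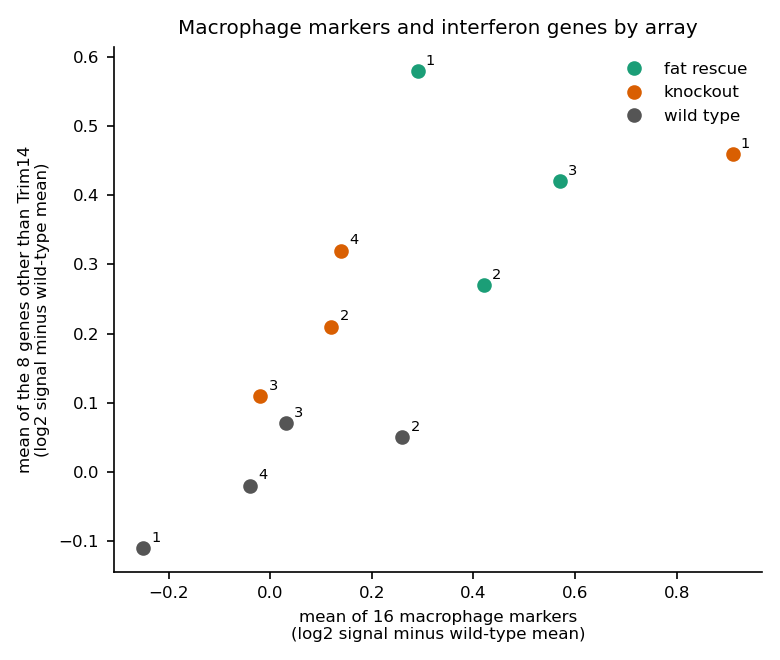
Mean of 16 macrophage markers (horizontal axis) and mean of the 8 genes other than Trim14 (vertical axis) on each array, both as log2 signal minus the wild-type mean, with array numbers beside the points. Fat rescue array 1 (0.29 and 0.58) and knockout array 1 (0.91 and 0.46) are the highest on the vertical axis, and wild-type array 1 (-0.25 and -0.11) is the lowest on both.

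The wider interferon pathway showed no single gene past the threshold. Of 105 further genes listed, 82 were measured. With limma 0 of them passed in knockout minus wild type (smallest adjusted p = 0.355), fat rescue minus knockout (0.998) or fat rescue minus wild type (0.400). At an unadjusted p under 0.05 there were 12 of the 82 in knockout minus wild type, beside 7.3% of all genes. There were 9 in fat rescue minus knockout, beside 3.81%, and 15 in fat rescue minus wild type, beside 8.09%. Their median log2 difference was 0.04 in knockout minus wild type, beside 0.02 over all genes. It was 0.11 in fat rescue minus knockout, beside 0.01, and 0.15 in fat rescue minus wild type, beside 0.03.

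Upstream of the response, 8 genes for interferons themselves had a probe set and none passed the filter, with median signals of 2.2 to 29.8. Of 6 measured genes for the receptor, its kinases and the complex with Irf9, 3 were higher and 3 lower in knockout than in wild type. Ifnar2, a receptor chain, averaged 1249 ± 66.1 in fat rescue, 1159.6 ± 124 in knockout and 1319 ± 85.4 in wild type. Irf9, a DNA-binding part of that complex, averaged 263 ± 10 in fat rescue, 243 ± 20.7 in knockout and 218 ± 34.7 in wild type. Stat2 averaged 83.6 ± 14.4, 96.6 ± 14.1 and 76.8 ± 13.9 in the same genotypes. Differences of Jak1, a kinase of the receptor, stayed between -0.12 and 0.07.

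Among the sensors and adaptors 10 of 18 were higher in knockout and 13 of 18 in fat rescue than in wild type. Nlrc5, an activator of MHC class I genes, averaged 293 ± 15 in fat rescue, 256 ± 25.4 in knockout and 201 ± 39.2 in wild type. Sting1, the adaptor of cytosolic DNA sensing, averaged 178 ± 21.7 in fat rescue, 158 ± 28.2 in knockout and 121 ± 26.4 in wild type. Trim25, which activates the RNA sensor RIG-I, averaged 777 ± 41.2 in fat rescue, 662 ± 69.9 in knockout and 665 ± 49.9 in wild type. In contrast, Myd88, the adaptor of Toll-like receptors, was highest in knockout, at 404 ± 23.8, with 383 ± 28.1 in fat rescue and 346 ± 35.7 in wild type. None of the 4 passed.

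Of 6 other IRF genes 5 were higher in knockout than in wild type. Irf8, a factor of myeloid cells, averaged 299.9 ± 13.5 in fat rescue, 259 ± 68.2 in knockout and 199.9 ± 16.8 in wild type (fat rescue minus wild type 0.59 ± 0.17, adjusted p = 0.410, limma). Irf5, a factor of inflammatory macrophages, averaged 187 ± 17.2 in fat rescue, 160.1 ± 48.3 in knockout and 130.5 ± 12.1 in wild type. Irf1 averaged 787 ± 114 in fat rescue, 698 ± 57.9 in knockout and 635 ± 103 in wild type. Irf4 was uneven, at 94.3 ± 33.3 in fat rescue, 252 ± 268 in knockout and 172 ± 37 in wild type.

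The 42 other measured interferon-stimulated genes were nearly evenly divided in knockout, with 23 higher and 19 lower than wild type (median 0.02). In fat rescue 32 were higher and 10 lower than wild type (median 0.16). Cmpk2, a mitochondrial nucleotide kinase gene that neighbours Rsad2, averaged 109.6 ± 19.4 in fat rescue, 129.6 ± 10.4 in knockout and 82.6 ± 6.81 in wild type. Its difference of 0.65 ± 0.15 in knockout minus wild type did not pass (adjusted p = 0.364, limma), although the groups did not overlap, as was so for 1.98% of all genes in this direction. Epsti1 averaged 215 ± 3.89 in fat rescue, 196 ± 26.9 in knockout and 161 ± 19.6 in wild type. Rtp4 averaged 542 ± 53.2 in fat rescue, 527 ± 77.9 in knockout and 419.7 ± 36.6 in wild type. Slfn5 had its highest mean in fat rescue, at 589 ± 80.8, with 472 ± 52.2 in knockout and 465 ± 27.9 in wild type, and did not pass either.

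The enzymes that join ISG15 to proteins did not share one direction in knockout. Ube2l6, the conjugating enzyme, averaged 72.7 ± 28.5 in fat rescue, 88.1 ± 19.8 in knockout and 54.3 ± 13 in wild type. Herc6, the mouse ligase, averaged 113 ± 23.9 in fat rescue, 81.2 ± 4.94 in knockout and 94.1 ± 12.1 in wild type. Uba7, the activating enzyme, averaged 258 ± 47.3, 219 ± 21.9 and 226 ± 38.9 in the same genotypes. Of 7 measured negative regulators of interferon signalling, the phosphatase gene Ptpn6 was highest in knockout, at 263 ± 30.7, with 194 ± 51.2 in fat rescue and 164 ± 17.5 in wild type. Its knockout minus wild type difference was 0.68 ± 0.15 (adjusted p = 0.355, limma). Pias4, a SUMO ligase, averaged 238 ± 7.57 in fat rescue, 249.5 ± 30.8 in knockout and 306 ± 49.4 in wild type, and Pias1 and Pias2 differed by -0.17 to 0.17 in all comparisons.

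**Figure D5:**
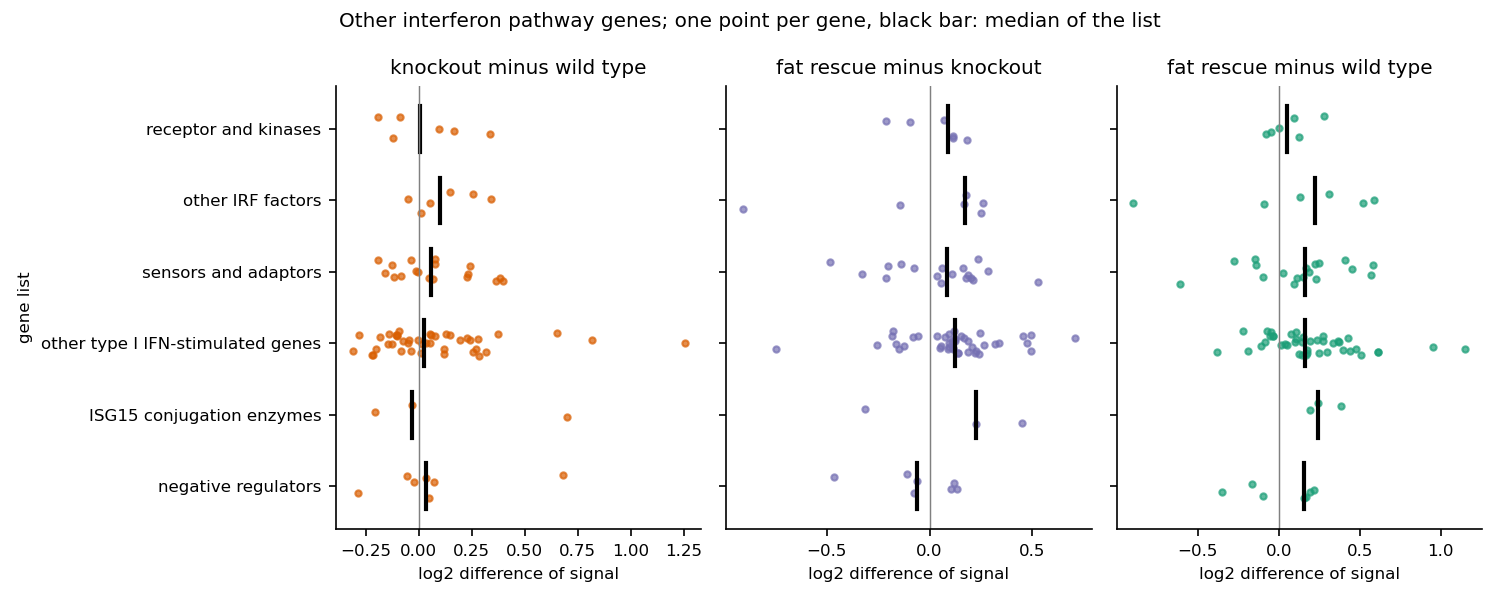
Log2 difference of signal (horizontal axis) for 82 further interferon pathway genes in 6 lists, one panel per comparison, with a point per gene and a bar at the median of each list. The medians lie between -0.03 and 0.10 in knockout minus wild type and between 0.05 and 0.24 in fat rescue minus wild type.

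None of the other tripartite motif genes passed the threshold. Of 38 measured, 14 were higher in knockout than in wild type (median log2 difference -0.04), and 0 passed with limma, with 3 at an unadjusted p under 0.05 beside 7.3% of all genes. In fat rescue minus wild type 23 of 38 were higher, 0 passed, and 2 had an unadjusted p under 0.05 beside 8.09% of all genes. The largest differences in knockout minus wild type were those of Trim67 (-0.97 ± 0.59), Trim12c (0.68 ± 0.17) and Trim59 (-0.67 ± 0.46). Trim12c averaged 199 ± 15.5 in fat rescue, 219 ± 49.1 in knockout and 137 ± 28.2 in wild type (knockout minus wild type adjusted p = 0.424, limma). Trim67 and Trim59 had group means of 22.7 to 43.4, below or near the array medians, so their differences are no exact sizes.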

How the data were processed

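Total RNA of 11 fat samples had been hybridized by the submitters to 1-colour Affymetrix mouse arrays. The deposited table holds the authors' linear signal intensity per probe set, made with GCOS 1.3 and MAS5 per the submitters' processing notes, and no detection calls. After trimming 2% at each end, the mean was 200 on every array. Array medians were 45.6 to 46.6 in fat rescue, 46.5 to 48.8 in knockout and 41.3 to 45.1 in wild type, and the number of arrays limits precision. The single value of 0 was set to 0.1 before log2 was taken.

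Gene names came from GEO's platform annotation, updated through a GRCm38.p6 gene table, which matched 34754 of the 34945 probe sets with 1 symbol; 932 had several and 9160 none. Of 45037 probe sets, the brightest 60% in mean log2 signal (27022) were kept, and the brightest represented each of 12709 genes. All arrays were fitted with limma 3.58.1 (eBayes with trend, R 4.3.3), with genotype as the only factor, two-sided, at a Benjamini-Hochberg adjusted p of 0.05 over all genes. Probe sets of the 9 genes were also fitted among all 45037. The 3 comparisons share groups, so their values are not independent, and p-values measure only the spread between these arrays.

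On simulated data with 200 of 12709 genes changed, 41.3% of changes by a factor of 1.5 and 74.6% by a factor of 2 were recovered in knockout against wild type (false calls 5.44%). The shares for fat rescue minus knockout were 32.8% and 72.1% (false calls 5.27%). The 200 genes also included changes by a factor of 4, and the noise was drawn independently for each gene and array. The threshold is stricter where fewer genes change. Far fewer genes passed in the real data, so these shares may be too high for them.

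The genes and lists were chosen with earlier results of these data known. Genes named are the 9, per list the 4 with the smallest p over the genotypes, the 5 most like each pattern, and the 3 tripartite motif genes with the largest knockout difference; Siglech and Adipoq are markers chosen after their values were seen. Alternatives were quantile normalization, median centring, log2(value + 50), other filters, probe set rules and variance models, only the groups compared, a replicate block and each array left out.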

Additional observations from a re-analysis of the deposited data

Results flagged for a closer look

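In groups of 4 arrays, the highest or lowest array was compared with the spread of the others, in 52 groups of values. Chance alone marks about 1 in 20 groups, and 3 were marked here. Ifit3 read 273.4 on knockout array 3, against 427.2 to 454.6 on the other knockout arrays. One of the dimmer probe sets of Rsad2 read 131.4 on knockout array 1, against 160.8 to 164.7 on the others, although the brightest Rsad2 probe set was highest among knockout arrays on that array. The mean level of the mesothelial markers, on the log2 scale relative to wild type, was -0.47 on wild-type array 1, against 0.12 to 0.20 on the other wild-type arrays.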

How the results depend on the processing

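In 24 alternatives, of which leaving out both fat rescue array 1 and wild-type array 1 was added after seeing the data, the 8 genes other than Trim14 were all higher in knockout than in wild type. At least 7 were higher in fat rescue than in wild type, and 5 to 7 were higher in fat rescue than in knockout. Several alternatives, such as eBayes without trend, robust eBayes and other filters, leave the group means unchanged and could not alter these directions. The 8 genes are also taken to have been chosen for higher means in knockout. In fat rescue minus knockout none of these 8 passed in any alternative run, and no further pathway gene passed in any of the 3 comparisons. Trim14 stayed lower in knockout than in wild type (-0.96 to -0.75) and passed in 18 of 24. The count of the 9 genes past the threshold there was 0 with eBayes without trend and with only the groups compared, and 0 to 1 with single arrays left out.

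The number of all genes past the threshold in knockout against wild type (5) was 10 with arrays centred on their medians, 2 without trend and with only the groups compared, 14 without both arrays named above and 2 to 14 with single arrays left out. In fat rescue against wild type (2) it was 5 with centring, 6 with the upper 40% of probe sets, 7 with array weights and 6 without both arrays. It was 1 with mean probe sets, without trend, with robust eBayes and with only the groups compared, and 1 to 8 with single arrays left out. In fat rescue against knockout it was 0 throughout.

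Centring moved the median of all genes in knockout minus wild type to -0.13 and that of the 82 pathway genes to -0.11, so those genes moved with the scaling. In fat rescue minus wild type the pathway median became 0.05. The Irf7 difference in fat rescue minus wild type turned to -0.02 with quantile normalization, -0.09 with centring, -0.02 with array weights and -0.22 without both arrays, and lay between -0.14 and 0.16 with single arrays left out. The Isg15/Gm9706 difference in fat rescue minus knockout became 0.00 with centring and lay between -0.22 and 0.09 with single arrays left out, and that of Ifit3 between -0.10 and 0.15. The causes were not tested. Replicate numbers were not taken as pairs, which the labels do not give. Deviations of same-numbered arrays correlated at -0.14 to 0.345, above 0.1 in 4 of 10 pairs. Differently numbered arrays were not compared, so these values do not show that pairing was absent. With the replicate block 8 genes passed in knockout against wild type in place of 5, Trim14 among them, and no other call on the genes described changed.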
